A study of Mus musculus with 12 samples.

Results

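Glycolysis and the response to low oxygen were followed here through 37 genes, named by their textbook roles. The rule used no measured value, but the genes were picked with earlier results of these data known. They were looked up by Ensembl identifier among the 18911 genes of the count table, and all 37 were present. The set holds 2 glucose transporters, 2 monocarboxylate transporters, 14 glycolytic enzymes, 2 lactate dehydrogenases, 4 regulators of glucose flux, 4 oxygen-sensing genes and 9 targets of the hypoxia-inducible factors (HIFs). The cells were neuronal progenitor cells (mNPCs) grown from the hippocampus of newborn mice (postnatal day 0), and poly(A) RNA was sequenced in 12 libraries, 3 for each of 4 genotypes. Kmt2a encodes a histone H3 lysine 4 methyltransferase. Kmt2a+/+ is the wild type. Kmt2a+/LSL carries a floxed stop element (LSL) within intron 1 of 1 allele, which ends that transcript early. Nes-Cre+/- Kmt2a+/+ carries nestin-Cre alone, and Nes-Cre+/- Kmt2a+/LSL carries both, where Cre, driven by the nestin promoter in the nervous system, is to remove the element in utero. The LSL allele was made in C57BL/6J zygotes. The study calls the 3 libraries of a genotype biological replicates, but the sources used here do not say which animals or litters gave which culture, so p-values measure the spread between these libraries, which may be partly technical.

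Glycolysis splits glucose into pyruvate in the cytosol and yields ATP without oxygen. Pyruvate then enters the mitochondria or is reduced to lactate, which leaves the cell through monocarboxylate transporters. HIF proteins are made continuously, and in oxygen the prolyl hydroxylases of the Egln family mark their alpha subunits for destruction. When oxygen is low the alpha subunits persist, bind DNA at a core motif, ACGTG, and raise the transcription of glycolytic enzymes, angiogenic factors and mitophagy genes. Neural progenitors are known for a strongly glycolytic metabolism, and the switch to oxidative metabolism accompanies neuronal differentiation.

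The HIF core motif was looked for in the 250 bases upstream of the most 5′ annotated start of each member (RefSeq, GRCm38.p6), on both strands, with CACGTG counted on each. The sequences matched 33 of the 37 members, the others being Slc2a3, Ndrg1, Bnip3l and Epas1. The motif was present in 18 of the 33 (54.5%), against 4467 of 27025 upstream sequences of all genes (16.5%). It was found in 5 of 7 HIF targets and in all 3 oxygen-sensing genes with a sequence, but in 4 of 14 glycolytic enzymes. A match is a description of the letters only. These 4 sequences are shown because Ldha held the most matches, Bnip3 and Slc2a1 are the usual examples of a mitophagy and a glucose transport target, and Pfkfb3 is the member on which the comparisons below turn. They run 5′ to 3′ on the gene's strand, and capitals mark the motif.
Ldha (chr7:46845554-46845803, + strand): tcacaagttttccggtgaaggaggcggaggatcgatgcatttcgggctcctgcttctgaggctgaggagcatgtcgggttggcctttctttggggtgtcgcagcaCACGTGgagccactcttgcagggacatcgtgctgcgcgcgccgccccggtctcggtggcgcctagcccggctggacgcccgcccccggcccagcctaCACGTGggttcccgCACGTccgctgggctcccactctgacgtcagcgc
Bnip3 (chr7:138909507-138909756, - strand): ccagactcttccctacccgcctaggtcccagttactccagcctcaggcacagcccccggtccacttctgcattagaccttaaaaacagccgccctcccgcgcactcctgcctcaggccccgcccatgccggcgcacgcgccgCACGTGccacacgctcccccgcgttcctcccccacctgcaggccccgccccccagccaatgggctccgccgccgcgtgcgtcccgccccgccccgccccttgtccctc
Slc2a1 (chr4:119108495-119108744, + strand): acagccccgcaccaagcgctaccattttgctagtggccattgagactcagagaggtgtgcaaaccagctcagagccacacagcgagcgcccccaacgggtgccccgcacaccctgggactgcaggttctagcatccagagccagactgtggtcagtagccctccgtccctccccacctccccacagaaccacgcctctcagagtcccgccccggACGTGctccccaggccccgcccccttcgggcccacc
Pfkfb3 (chr2:11553930-11554179, - strand): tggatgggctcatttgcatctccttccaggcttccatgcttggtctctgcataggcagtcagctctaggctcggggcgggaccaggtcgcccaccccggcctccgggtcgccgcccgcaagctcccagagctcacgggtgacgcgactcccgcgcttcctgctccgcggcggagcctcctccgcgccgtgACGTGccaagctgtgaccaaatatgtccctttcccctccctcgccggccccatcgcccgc
The Ldha sequence held 5 matches, Bnip3 2, and Slc2a1 and Pfkfb3 1 each.

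Levels are given as CPM, counts scaled to a common library size with edgeR's TMM method (cpm). Library totals lay between 18280008 and 28596919 estimated counts, and 3 counts corresponded to 0.103 to 0.178 CPM. Kmt2a was at 289, 300.3 and 281 CPM (Kmt2a+/+), 166, 166 and 167 (Kmt2a+/LSL), 283, 310.0 and 299 (Nes-Cre+/- Kmt2a+/+), followed by 273, 284 and 259 (Nes-Cre+/- Kmt2a+/LSL), so that every library followed its label. The log2 fold change of Kmt2a in Kmt2a+/LSL against Kmt2a+/+ was −0.80 (SE 0.13), and its adjusted p was 0.281 by edgeR. The 6 neural progenitor markers summed to 5300 to 12699 CPM over the libraries. Of the neuronal markers Map2 lay at 979.8 to 1874 CPM and the other 4 at 28.2 CPM or less each, with Map2 highest and Tubb3 lowest in Kmt2a+/+ replicate 1. Astrocyte markers summed to 331 to 1496 CPM, oligodendrocyte lineage markers to 73.5 to 214 CPM and the ependymal marker Foxj1 to 3.63 to 33.8 CPM, and their part in the results below was not tested. Fewer cells of a type and less RNA per cell cannot be told apart in such bulk samples. The 2 microglial markers tested reached at most 1.73 CPM in sum, the 2 endothelial ones 3.15 CPM, fibroblast markers 1.63 CPM and mural markers 10.4 CPM, and neither hemoglobin gene was among the genes tested. Kmt2a+/+ replicate 1 stood apart from the other libraries. Its median correlation with the other wild-type libraries was 0.903 across genes, against 0.939 to 0.984 for the other 11 libraries within their genotypes, and it held the lowest value of 34.1% and the highest of 30% of all genes tested. Where leaving it out changed which members had an unadjusted p under 0.05, both are given below. So are shifts in the balance of directions of more than a few members.

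Several glycolytic enzymes were among the more abundant members, but Pfkp, Hk2 and Eno2 were among the less abundant. To compare genes, CPM were divided by the length of the longest annotated transcript in kb, which is only a rough correction where shorter isoforms are used. On this per-kb scale, averaged over 12 libraries, enolase Eno1 reached 864, pyruvate kinase Pkm 450, Gapdh 415, phosphoglycerate kinase Pgk1 391, aldolase Aldoa 356 and phosphoglycerate mutase Pgam1 217. Pfkp, Hk2 and Eno2 averaged 1.35, 1.03 and 0.968. The aldolase Aldoc, which is no member, averaged 268 and exceeded Aldoa in 2 of 12 libraries per kb. Triosephosphate isomerase Tpi1, which acts between aldolase and Gapdh, was at 3.48, and Gapdh exceeded it by 33.0-fold to 432-fold per kb in the single libraries. Tpi1 had 20 to 471 counts per library, and its CPM differed 15.7-fold between libraries. Whether this estimate reflects its true level was not tested. The isomerase Gpi1, which makes fructose 6-phosphate, was at 174. All 37 members passed the filter on low counts, and 35 had counts in every library.

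Among hexokinases, which trap glucose as glucose 6-phosphate, Hk1 exceeded Hk2 in all 12 libraries, by a median of 31.4-fold per kb. Among the phosphofructokinases, which commit sugar to glycolysis, the order Pfkm, Pfkl, Pfkp held in every library, with median ratios of 5.68 and 7.68. Eno1 was above the neuronal enolase Eno2 by a median of 1030-fold (557-fold to 1426-fold). Ldha, the form that favours lactate formation, was above Ldhb by a median of 11.2-fold, with the lowest ratio, 2.12, in Kmt2a+/+ replicate 1. Of the transporters, Slc2a1 (GLUT1) exceeded Slc2a3 (GLUT3) by a median of 4.51-fold and Slc16a1 (MCT1) exceeded the lactate exporter Slc16a3 (MCT4) by a median of 30.9-fold per kb, both in all 12 libraries.

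Of the oxygen-sensing genes, Hif1a exceeded Epas1 (HIF-2 alpha) by a median of 7.47-fold per kb and the prolyl hydroxylase Egln1 exceeded Egln3 by a median of 2.35-fold, both in all 12 libraries. Egln2, a prolyl hydroxylase that is no member, averaged 24.4 per kb beside 23.9 for Egln1 and was above it in 7 of 12. Of the regulators, the pyruvate dehydrogenase kinase Pdk3 exceeded Pdk1 by a median of 3.00-fold per kb in all 12 libraries, but Pdk2, which is no member, exceeded Pdk3 in 11 of 12, by a median of 2.69-fold. The kinase-phosphatases Pfkfb3 and Pfkfb4 averaged 6.47 and 0.316. The HIF targets spanned a wide range. Per kb, Ddit4, an inhibitor of mTORC1, averaged 60.9, the mitophagy receptors Bnip3l and Bnip3 42.01 and 15.5, the collagen prolyl hydroxylase P4ha1 18.4, the angiogenic factor Vegfa 10.53 and adrenomedullin Adm 7.37. A few HIF targets were near the limit of detection. Carbonic anhydrase Car9 had 0 to 19 counts per library, Ndrg1 2 to 18 and Ankrd37 5 to 13. With so few counts, their values carry a large counting error. Of the other members, the lowest count in any library was 0 for Pfkfb4, 3 for Slc16a3, 19 for Eno2, 20 for Tpi1, 87 for Hk2 and 150 or more for the rest, and the highest was 68271 for Eno1.

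**Figure D1:**
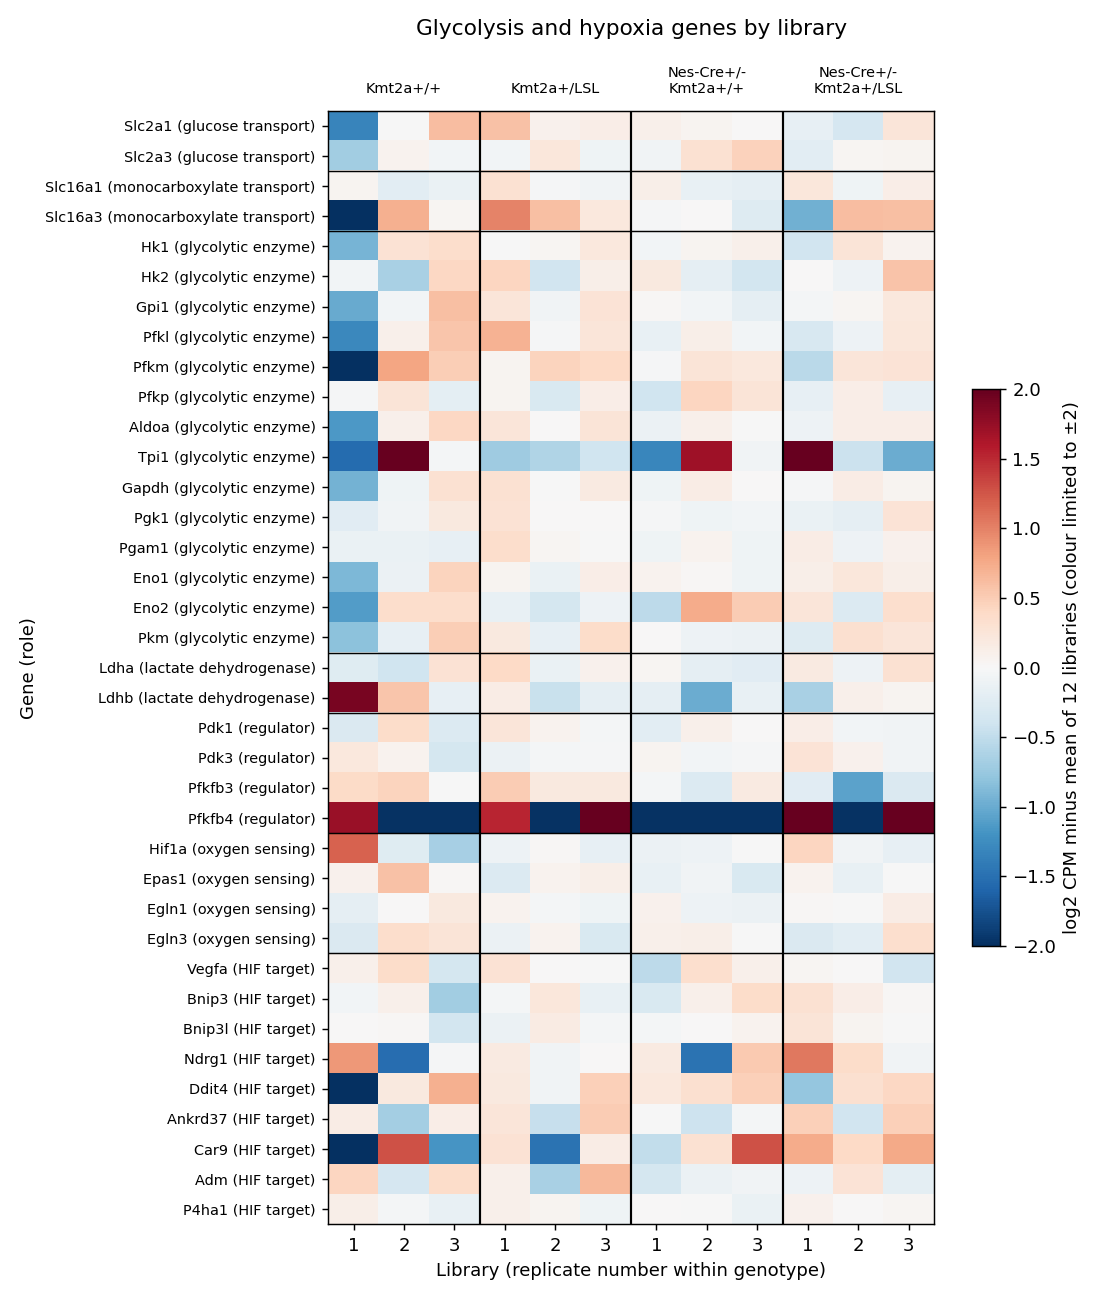
Each row is 1 of the 37 genes with its role and each column 1 library, grouped by genotype, and the colour gives the log2 CPM minus the mean of the 12 libraries, limited to ±2. The first column, Kmt2a+/+ replicate 1, is blue in all 14 glycolytic enzymes and red in Ldhb and Hif1a, while no genotype forms a block of 1 colour.

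Several glycolytic genes have near-identical copies elsewhere in the genome, and the estimated counts were split between them unevenly. Of the 31-base words in the transcripts of Bnip3, 57.0% also occur in other genes of the GRCm38 annotation, and this share was 54.7% for Pgk1, 37.1% for Pgam1, 34.7% for Pkm, 33.0% for Ldhb, 28.5% for Eno1 and 28.1% for Gapdh. The table holds 35 copies that share at least 50% of their words with Gapdh. Of these, Gm10359 and Gm12671 lie wholly within the Gapdh sequence and received the same count as each other in every library, 0, 1600 and 4127 (Kmt2a+/+), 900, 258 and 978 (Kmt2a+/LSL), 988, 333 and 849 (Nes-Cre+/- Kmt2a+/+), followed by 0, 44 and 0 (Nes-Cre+/- Kmt2a+/LSL). The copies took 0.589% to 17.6% of the reads of the Gapdh family. Pgam1-ps2, whose words all lie in Pgam1, was given 0, 1034 and 2377 counts (Kmt2a+/+), 1042, 672 and 1081 (Kmt2a+/LSL), 1095, 1065 and 979 (Nes-Cre+/- Kmt2a+/+), followed by 0, 964 and 56 (Nes-Cre+/- Kmt2a+/LSL), which is 0% to 19.3% of that family. The 4 lowest shares of the Gapdh family were those of Kmt2a+/+ replicate 1 and of the Nes-Cre+/- Kmt2a+/LSL libraries. For Pgk1 the share of its 2 copies was at most 4.61%. Reads of a gene and its copy cannot be told apart in these counts, and values of Gapdh and Pgam1 below are uncertain by that share. For Bnip3 and Pkm, how reads in their shared words were assigned was not examined. Their values below carry a doubt of unknown size.

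**Figure D2:**
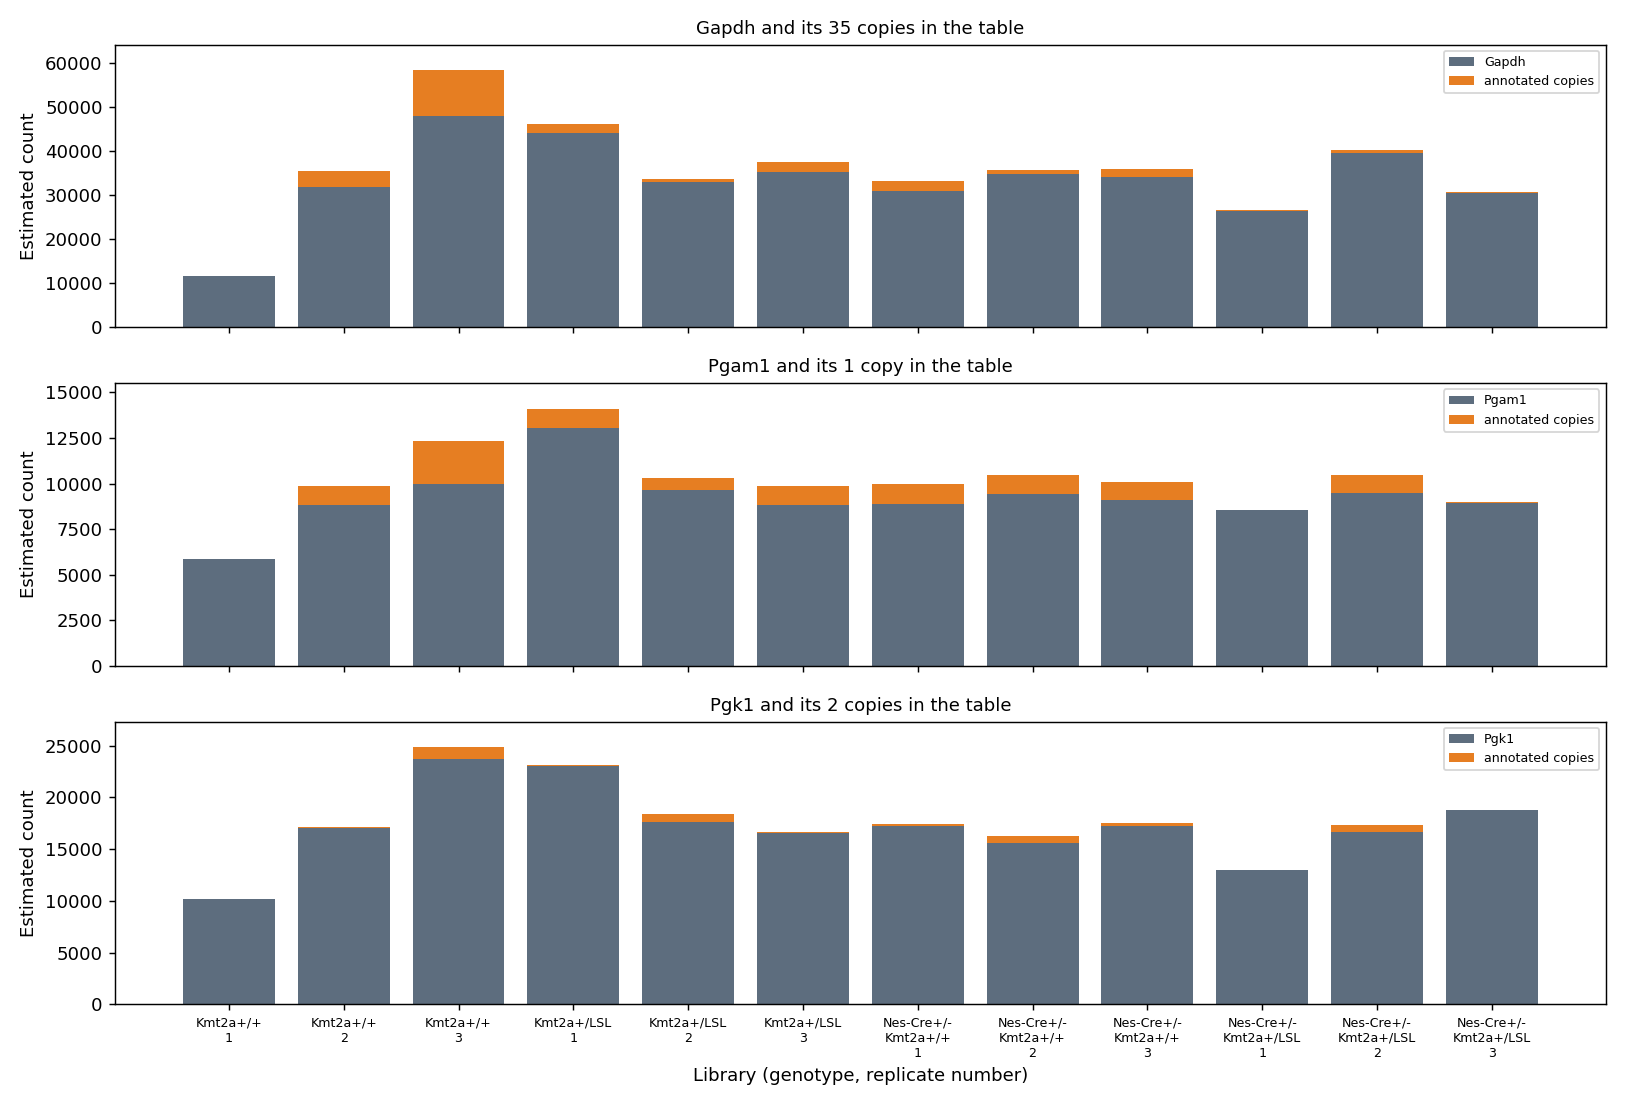
Bars show the estimated count of Gapdh, Pgam1 and Pgk1 (grey) in each library, with the summed count of their annotated copies stacked on top (orange). The copies reach 17.6% of the Gapdh family and 19.3% of the Pgam1 family in Kmt2a+/+ replicate 3 and 0.589% and 0% in replicate 1 of the same genotype.

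The pooled SD of the log2 value within genotypes had a median of 0.391 over the 37 members and 0.476 over all genes tested. The SD between the genotype means had medians of 0.143 and 0.174, but a mean of 3 libraries varies less than a single library even with no effect of genotype, so the lower value says nothing on genotype. The spread between genotypes exceeded that within them in 1 member, Pfkfb3 (2.7% of the members, against 3.57% of all genes). The 3 most variable members were Pfkfb4, Tpi1 and Car9, with within-genotype SDs of 2.38, 1.48 and 1.09. The 3 steadiest were P4ha1, Egln1 and Pgam1, with SDs of 0.0902, 0.125 and 0.129. P4ha1 lay between 67.4 and 80.3 CPM and Egln1, which is itself an oxygen sensor, between 75.2 and 98.2 CPM over all 12 libraries.

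In Kmt2a+/+ replicate 1, 18 members were below all other 11 libraries and 3 above them (Ldhb, Hif1a and P4ha1). This compares with 34.1% of all genes below and 30% above. All 14 glycolytic enzymes were under their 12-library mean, by a median of 0.94 on the log2 scale, whereas 6 of 9 HIF targets were over it. Against the mean of the other 11 libraries, the log2 value was −2.82 for Pfkm, −2.77 for Slc16a3, −2.71 for Ddit4, 1.29 for Hif1a and 2.07 for Ldhb. Across 12375 genes with a mean log2 CPM above 0, the deviation of this library had a Pearson correlation of −0.67 with the GC content of the transcript, and of −0.49 over the 37 members. Kmt2a+/+ replicate 3 had the opposite sign, with 0.69 and 0.40. These correlations run across genes, which are not independent replicates, and they share the library. Glycolytic enzyme transcripts such as Pkm (57.7% GC), Eno1 (57.4%) and Pfkl (57.1%) were on the GC-rich side, whereas Hif1a (41.3%), Bnip3 (41.6%) and Bnip3l (41.9%) were on the GC-poor side. The roles were not split cleanly, as the enzymes Pfkp (48.0%) and Pgk1 (49.7%) were lower and the HIF target Ddit4 (57.9%) was highest. Ldhb, at 53.0%, did not follow this order, being high in the library in which most GC-rich members were low. The part of GC content in these deviations was not tested. Without this library, the median SD within genotypes was 0.285 for the members and 0.291 for all genes.

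**Figure D3:**
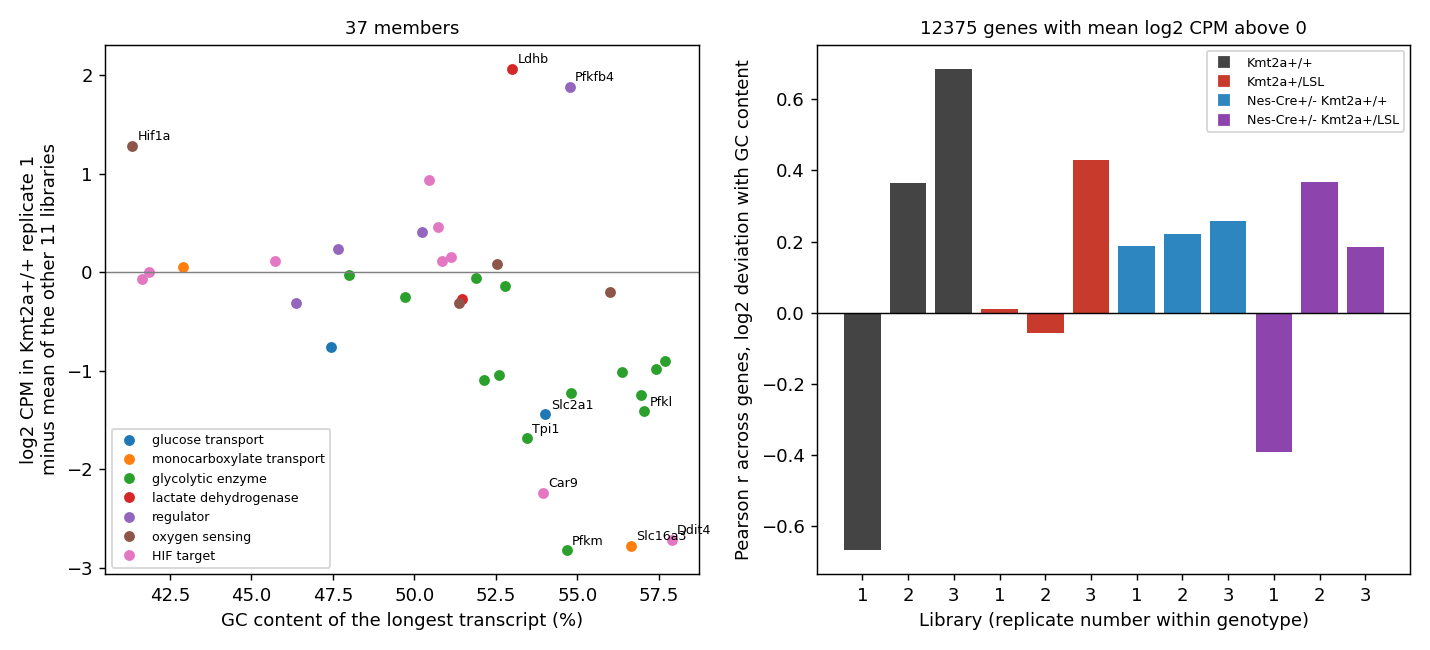
The left panel plots, for each of the 37 members coloured by role, the log2 CPM in Kmt2a+/+ replicate 1 minus the mean of the other 11 libraries against the GC content of its longest transcript. The right panel gives for each library the Pearson correlation across 12375 genes between the log2 deviation from the mean and GC content, from −0.67 in Kmt2a+/+ replicate 1 to 0.69 in Kmt2a+/+ replicate 3.

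The values of the members followed in each library show how far the genotypes overlapped. Libraries are listed in the order of replicates 1, 2 and 3. Slc2a1, which brings glucose into the cell, was at 13.7, 34.2 and 52.7 CPM (Kmt2a+/+), 51.9, 36.3 and 37.6 (Kmt2a+/LSL), 36.99, 35.7 and 34.4 (Nes-Cre+/- Kmt2a+/+), followed by 30.8, 27.3 and 40.8 (Nes-Cre+/- Kmt2a+/LSL). The wild type alone held the lowest and the highest value of Slc2a1, and spanned all other libraries. Slc16a3 was at 0.178, 2.43 and 1.48 CPM (Kmt2a+/+), 2.96, 2.23 and 1.68 (Kmt2a+/LSL), 1.42, 1.45 and 1.19 (Nes-Cre+/- Kmt2a+/+), followed by 0.697, 2.25 and 2.23 (Nes-Cre+/- Kmt2a+/LSL). For Slc16a3 the 3 Kmt2a+/LSL libraries were all above the Nes-Cre+/- Kmt2a+/+ ones, and the other pairs of genotypes overlapped. That pair is not among the comparisons below, and no share of all genes is given for it.

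Hk2, the hexokinase that HIF-1 is known to induce, was at 5.29, 3.46 and 7.31 CPM (Kmt2a+/+), 7.42, 4.18 and 5.99 (Kmt2a+/LSL), 6.26, 4.83 and 4.25 (Nes-Cre+/- Kmt2a+/+), followed by 5.53, 5.09 and 8.21 (Nes-Cre+/- Kmt2a+/LSL). Pfkp was at 11.3, 13.8 and 10.0 CPM (Kmt2a+/+), 12.0, 9.30 and 12.6 (Kmt2a+/LSL), 8.70, 15.5 and 13.8 (Nes-Cre+/- Kmt2a+/+), followed by 10.3, 12.7 and 10.3 (Nes-Cre+/- Kmt2a+/LSL). In both genes the highest and lowest libraries of a genotype lay further apart than any 2 genotype means. Pkm, which makes pyruvate, was at 603, 949 and 1504 CPM (Kmt2a+/+), 1225, 952 and 1375 (Kmt2a+/LSL), 1066, 989 and 983 (Nes-Cre+/- Kmt2a+/+), followed by 894, 1333 and 1258 (Nes-Cre+/- Kmt2a+/LSL). Ldha was at 290.0, 262 and 420.3 CPM (Kmt2a+/+), 453, 312 and 364 (Kmt2a+/LSL), 352, 303 and 295 (Nes-Cre+/- Kmt2a+/+), followed by 391, 319 and 426 (Nes-Cre+/- Kmt2a+/LSL). The wild-type libraries of Pkm spanned all others, and every pair of genotypes overlapped in Ldha.

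Pdk1, a pyruvate dehydrogenase kinase, was at 17.4, 27.4 and 17.6 CPM (Kmt2a+/+), 25.0, 22.3 and 20.7 (Kmt2a+/LSL), 18.4, 22.8 and 21.4 (Nes-Cre+/- Kmt2a+/+), followed by 23.4, 20.5 and 20.2 (Nes-Cre+/- Kmt2a+/LSL). Hif1a was at 582, 216 and 163 CPM (Kmt2a+/+), 239, 261 and 228 (Kmt2a+/LSL), 237, 240.3 and 255 (Nes-Cre+/- Kmt2a+/+), followed by 345, 245 and 230.0 (Nes-Cre+/- Kmt2a+/LSL). Apart from 1 wild-type library and 1 Nes-Cre+/- Kmt2a+/LSL library, Hif1a stayed between 163 and 261 CPM. Its transcript does not report the level of the protein, which is set by degradation.

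Egln3, a prolyl hydroxylase that is itself a HIF target, was at 21.5, 33.3 and 31.4 CPM (Kmt2a+/+), 24.1, 27.4 and 21.3 (Kmt2a+/LSL), 28.2, 28.3 and 26.0 (Nes-Cre+/- Kmt2a+/+), followed by 21.5, 22.6 and 33.0 (Nes-Cre+/- Kmt2a+/LSL). All 3 Kmt2a+/LSL libraries were below wild-type replicates 2 and 3 and only replicate 3 was below wild-type replicate 1. Vegfa was at 38.4, 46.2 and 28.0 CPM (Kmt2a+/+), 43.5, 36.1 and 35.6 (Kmt2a+/LSL), 24.9, 45.2 and 38.4 (Nes-Cre+/- Kmt2a+/+), followed by 36.7, 35.8 and 27.4 (Nes-Cre+/- Kmt2a+/LSL). Bnip3 was at 25.6, 28.5 and 16.5 CPM (Kmt2a+/+), 26.0, 31.2 and 24.0 (Kmt2a+/LSL), 21.7, 28.7 and 34.5 (Nes-Cre+/- Kmt2a+/+), followed by 32.8, 29.2 and 27.0 (Nes-Cre+/- Kmt2a+/LSL). Every pair of genotypes overlapped in both targets.

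**Figure D4:**
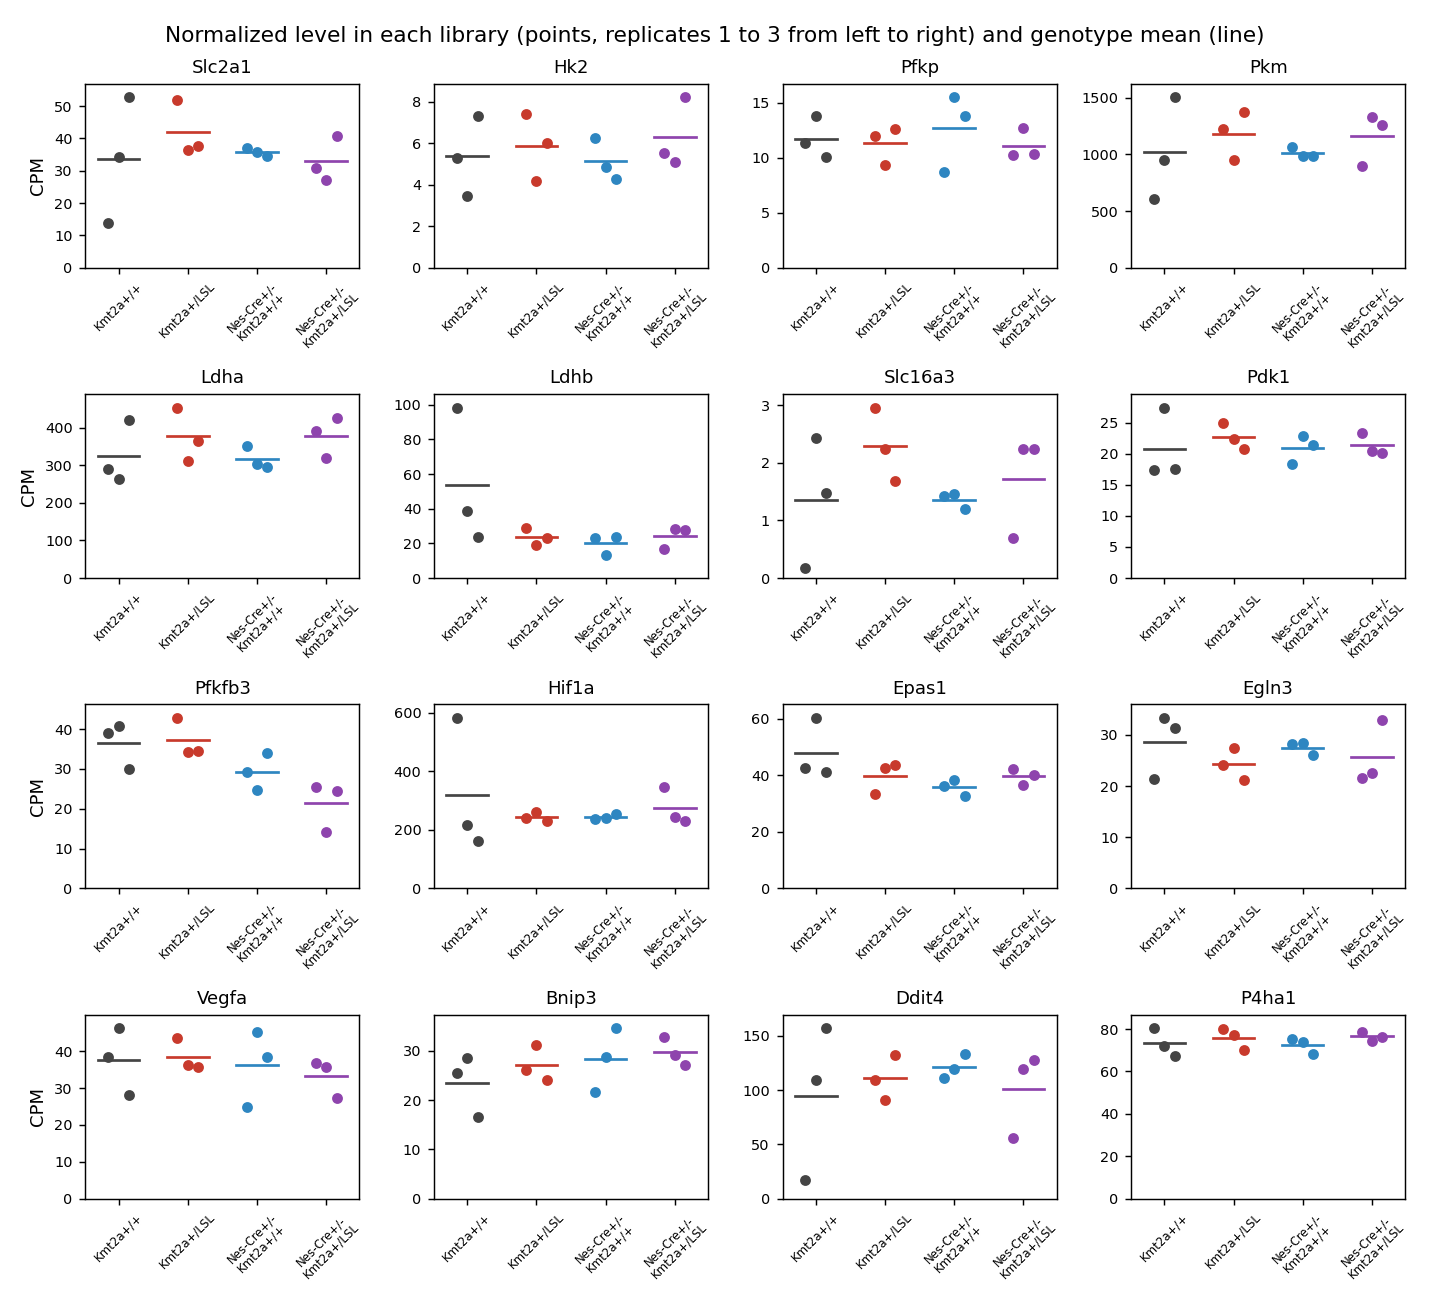
Points give the CPM of 16 members in each library, with replicates 1 to 3 from left to right within a genotype, and lines the genotype mean; each axis starts at 0. Pfkfb3 is the panel in which the 3 Nes-Cre+/- Kmt2a+/LSL libraries (14.2 to 25.4 CPM) lie below the 3 Kmt2a+/LSL libraries (34.3 to 42.8 CPM), and P4ha1 the one with the least spread.

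The first comparison, Kmt2a+/LSL against Kmt2a+/+, asked what loss of 1 Kmt2a allele does. None of the 37 members had an adjusted p under 0.05 (edgeR quasi-likelihood F-test, two-sided, Benjamini-Hochberg over 17076 genes), and 0% of all genes did. At an unadjusted p under 0.05, 1 member was found (1.79% of all genes, 0.668% higher and 1.12% lower). DESeq2's Wald test called 0 members (0.041% of all genes), as did its z-scores rescaled to an empirical null (0.152%). The member was Ldhb, the lactate dehydrogenase that favours pyruvate formation. Ldhb was at 98.3, 38.6 and 23.6 CPM (Kmt2a+/+), 29.1, 19.3 and 23.3 (Kmt2a+/LSL), 23.3, 13.2 and 23.8 (Nes-Cre+/- Kmt2a+/+), followed by 16.8, 28.2 and 27.4 (Nes-Cre+/- Kmt2a+/LSL). Only wild-type replicates 1 and 2 were above the other libraries, and the groups overlapped. The means were 23.9 ± 4.92 CPM in Kmt2a+/LSL and 53.5 ± 39.5 CPM in Kmt2a+/+ (SD, n = 3 each), with a log2 fold change of −1.16 (SE 0.46, unadjusted p = 0.0275, adjusted p = 1 by edgeR). Without Kmt2a+/+ replicate 1 it was −0.38 (unadjusted p = 0.249 by edgeR), and without Kmt2a+/LSL replicate 2 or 3 the unadjusted p was 0.0825 or 0.0651 by edgeR.

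By direction, 26 of 37 members had a log2 fold change above 0 in this comparison (50.1% of all genes), with a median of 0.12 against 0.0011 for all genes. These were 20 of 37, with a median of 0.03, without Kmt2a+/+ replicate 1. Among glycolytic enzymes 11 of 14 were above 0, with a median of 0.15, and all 4 oxygen-sensing genes were below 0, with a median of −0.26. Without Kmt2a+/+ replicate 1, 4 of 14 enzymes were above 0, with a median of −0.09, and 3 of 4 oxygen-sensing genes were below 0, with a median of −0.23. With an offset for GC content in all 12 libraries, 19 of 37 members were above 0, with a median of 0.02, and 7 of 14 enzymes, with a median of −0.0026. Over all genes too only 7093 of 17076 were then above 0, with a median of −0.05. With this offset Epas1, at −0.45, also had an unadjusted p under 0.05 (0.0476 by edgeR), as did 3.71% of all genes. The HIF targets had 7 of 9 members above 0 with and without Kmt2a+/+ replicate 1, with medians of 0.05 and 0.12, and 5 of 9 with the GC offset or with DESeq2 size factors (7674 of 17076 genes, median −0.03).

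The libraries of 1 member did not overlap in this comparison, Pgam1, which was higher in Kmt2a+/LSL (4.05% of all genes did not overlap, 2.3% higher and 1.76% lower). Pgam1 was at 350.2, 350.4 and 342 CPM in Kmt2a+/+ and at 489, 391.5 and 379 in Kmt2a+/LSL, with means of 348 ± 4.71 and 420.1 ± 60.3 CPM (SD, n = 3 each). This corresponded to a log2 fold change of 0.27 (SE 0.15, unadjusted p = 0.0943, adjusted p = 1 by edgeR), and the two-sided exact permutation test gave 0.1, the smallest value that 3 libraries against 3 allow. With its copy Pgam1-ps2 included the libraries overlapped, at 350.1, 391.5 and 423.9 CPM in Kmt2a+/+ and 528.5, 418.8 and 425.9 CPM in Kmt2a+/LSL. Their log2 fold change was 0.24 (SE 0.15, unadjusted p = 0.141 by edgeR) for gene and copy together. Pgam1 alone was at 0.04 with an offset for GC content and between 0.15 and 0.34 with each library left out. Without Kmt2a+/+ replicate 1, other members had an unadjusted p under 0.05 by edgeR (8.95% of the 16987 genes then tested): Tpi1 at −2.20, Egln3 at −0.41 and Pfkfb4, which had 0 counts in both remaining wild-type libraries. For Tpi1 these wild-type libraries were at 18.7 and 3.54 CPM, beside 2.17, 2.36 and 2.71 in Kmt2a+/LSL. Without Kmt2a+/+ replicate 3 instead, 6 members did (1029 of 16911 genes), of which Slc2a1, Gpi1, Gapdh, Pkm and Ldha were higher in Kmt2a+/LSL and Ldhb lower. The members that passed thus differed with the wild-type library left out.

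**Figure D5:**
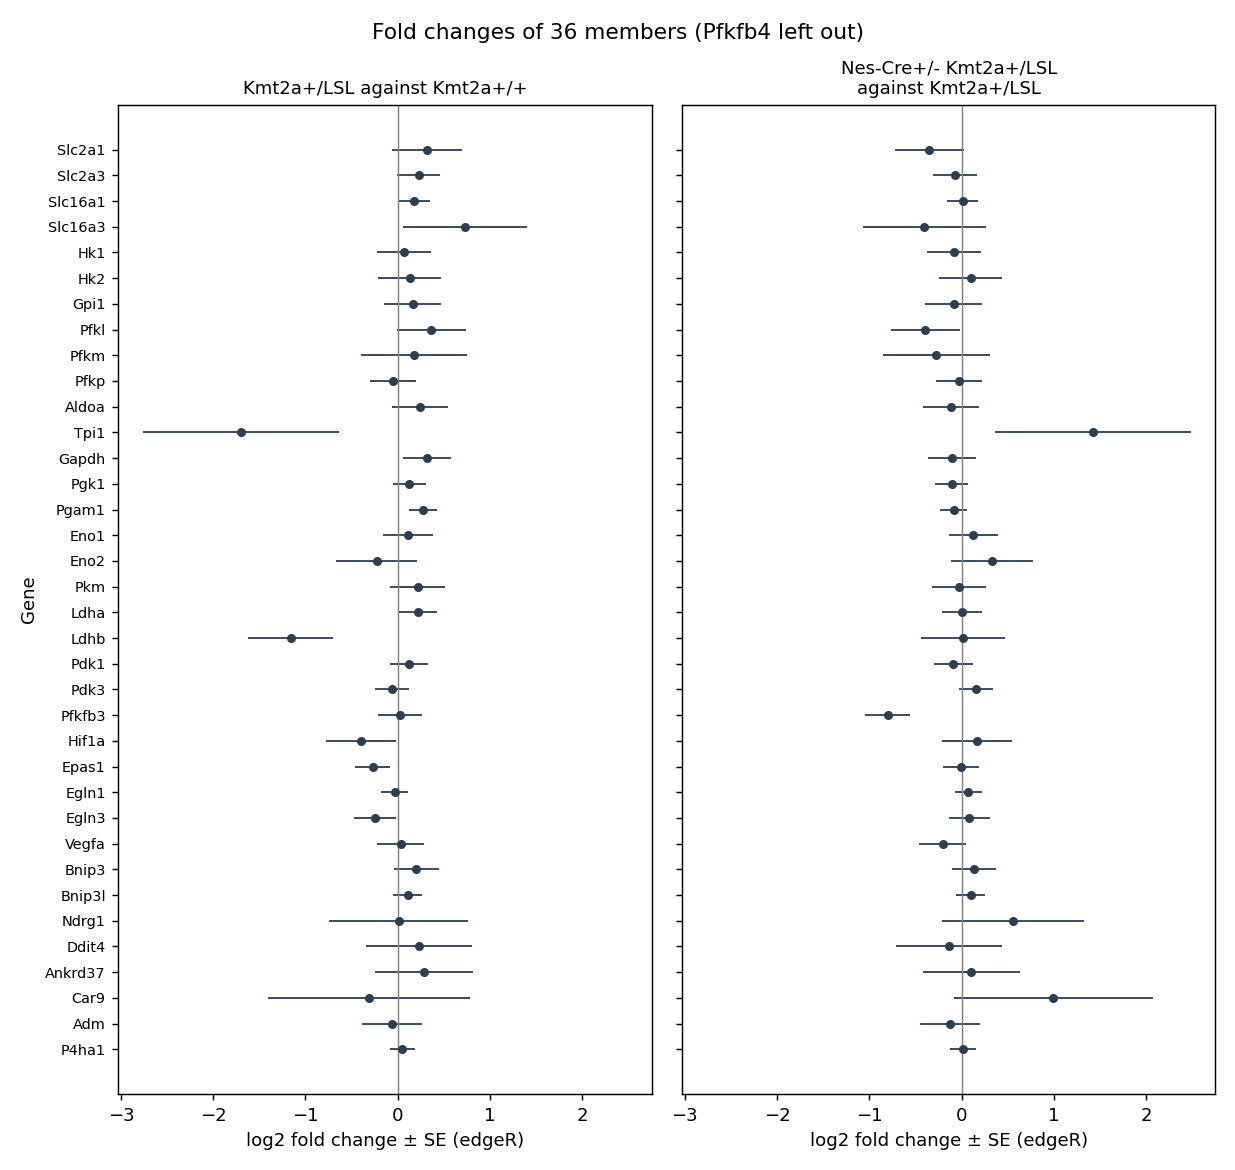
Points give the edgeR log2 fold change of 36 members with bars of 1 SE, for Kmt2a+/LSL against Kmt2a+/+ (left) and Nes-Cre+/- Kmt2a+/LSL against Kmt2a+/LSL (right), without Pfkfb4, whose values rest on libraries with 0 counts. Ldhb at −1.16 on the left and Pfkfb3 at −0.80 on the right lie furthest from 0 in units of their SE.

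The second comparison, Nes-Cre+/- Kmt2a+/LSL against Kmt2a+/LSL, asked what changes when the allele is restored. This comparison also adds nestin-Cre, so restoration and nestin-Cre cannot be told apart in it. It gave 0 members with an adjusted p under 0.05 (0% of all genes) and 1 with an unadjusted p under 0.05 by edgeR (1.61% of all genes, 1.06% higher and 0.55% lower). DESeq2's Wald test called 0 members here (0.041% of all genes), and its z-scores with an empirical null 2, Tpi1 and Pfkfb3 (5.48%). Tpi1 was at 15.1, 2.66 and 1.78 CPM in Nes-Cre+/- Kmt2a+/LSL and at 2.17, 2.36 and 2.71 in Kmt2a+/LSL. Its edgeR log2 fold change of 1.43 went to −0.12 with 1 library left out. The member found by edgeR was Pfkfb3, whose product makes fructose 2,6-bisphosphate, the strongest activator of phosphofructokinase. Pfkfb3 was at 39.0, 40.7 and 29.9 CPM (Kmt2a+/+), 42.8, 34.3 and 34.5 (Kmt2a+/LSL), 29.1, 24.8 and 33.9 (Nes-Cre+/- Kmt2a+/+), followed by 25.4, 14.2 and 24.4 (Nes-Cre+/- Kmt2a+/LSL). The 3 Nes-Cre+/- Kmt2a+/LSL libraries were below all Kmt2a+/+ and Kmt2a+/LSL libraries and overlapped with Nes-Cre+/- Kmt2a+/+. No share of all genes is given for the pair with Kmt2a+/+. The means were 21.4 ± 6.19 CPM in Nes-Cre+/- Kmt2a+/LSL and 37.2 ± 4.85 CPM in Kmt2a+/LSL (SD, n = 3 each).

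The log2 fold change of Pfkfb3 was −0.80 (SE 0.24, unadjusted p = 0.00701, adjusted p = 1 by edgeR, exact permutation p = 0.1). It lay between −0.95 and −0.58 when each library was left out in turn, and was −0.77 with the GC offset. The unadjusted p was under 0.05 in all 24 settings of the fit. The adjusted p ranged from 2.48e-07 to 1 over them, the low end from DESeq2 z-scores rescaled to an empirical null, under which 5.48% of all genes were called, and DESeq2's own Wald test gave an adjusted p of 1. In the first comparison Pfkfb3 had a log2 fold change of 0.03 (SE 0.24, unadjusted p = 0.912 by edgeR). For nestin-Cre alone, Nes-Cre+/- Kmt2a+/+ against Kmt2a+/+, it was −0.32. Against Nes-Cre+/- Kmt2a+/+ the Nes-Cre+/- Kmt2a+/LSL libraries gave −0.46 (SE 0.24, unadjusted p = 0.0868 by edgeR). That value and the −0.80 share the Nes-Cre+/- Kmt2a+/LSL libraries.

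The other 36 members gave no unadjusted p under 0.05 by edgeR in the second comparison. With the empirical null Pfkl and Tpi1 did, as did 2757 of 17076 genes. By edgeR, 18 of 37 members had a log2 fold change above 0 (50.4% of all genes), with a median of −0.01. This balance moved with single libraries, to 14 of 37 with a median of −0.10 without Kmt2a+/LSL replicate 2 and to 13 of 37 with a median of −0.08 without Nes-Cre+/- Kmt2a+/LSL replicate 3, where the medians of all genes were 0.01 and −0.01. Glycolytic enzymes had 4 of 14 above 0, with a median of −0.08, and HIF targets 6 of 9, with a median of 0.10. The libraries did not overlap in 2 members (7.1% of all genes, 3.57% lower and 3.54% higher), Pfkfb3 and Car9, the latter at 0.0406 to 0.337 CPM in Kmt2a+/LSL and 0.375 to 0.502 CPM in Nes-Cre+/- Kmt2a+/LSL. No member was free of overlap in both the first and the second comparison.

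Nestin-Cre alone was assessed in Nes-Cre+/- Kmt2a+/+ against Kmt2a+/+. It gave 0 members with an adjusted p under 0.05 (0% of all genes) and 2 with an unadjusted p under 0.05 by edgeR, both lower (0.714% of all genes were lower, 0.685% higher and 1.4% in either direction). DESeq2's Wald test and the empirical null called 0 members (0.0176% of all genes each). Ldhb had a log2 fold change of −1.41 (SE 0.46, unadjusted p = 0.0105, adjusted p = 1 by edgeR), which was −0.63 without Kmt2a+/+ replicate 1 (unadjusted p = 0.0647 by edgeR). Without that library Pfkm, at −0.50, had an unadjusted p of 0.0409 by edgeR, and the share of all genes under 0.05 was then 6.09%. The same 3 wild-type libraries enter this value and that of the first comparison. Epas1, the HIF-2 alpha subunit, was at 42.7, 60.3 and 41.1 CPM (Kmt2a+/+), 33.2, 42.5 and 43.7 (Kmt2a+/LSL), 36.4, 38.4 and 32.8 (Nes-Cre+/- Kmt2a+/+), followed by 42.2, 36.6 and 40.1 (Nes-Cre+/- Kmt2a+/LSL). Its libraries did not overlap in this comparison, as also in Pgam1, which was higher (4.35% of all genes, 2.82% higher and 1.53% lower). With its copy summed, Pgam1 overlapped, at 404.9, 448.2 and 400.1 CPM in Nes-Cre+/- Kmt2a+/+. The means of Epas1 were 35.8 ± 2.83 and 48.0 ± 10.7 CPM (SD, n = 3 each), with a log2 fold change of −0.42 (SE 0.19, unadjusted p = 0.0491, adjusted p = 1 by edgeR) that was −0.22 without Kmt2a+/+ replicate 2. Its unadjusted p lay between 0.00571 and 0.249 over the other settings, edgeR or other. The median over the members was −0.01, with 17 of 37 members and 9 of 14 enzymes above 0 (52% of all genes). Without Kmt2a+/+ replicate 1, 12 of 37 were above 0 and 2 of 14 enzymes (8430 of 16987 genes, median −0.0020). With DESeq2 size factors 13 of 37 were, but the median of all genes also moved, from 0.01 to −0.02 (8054 of 17076 genes above 0). With the GC offset 11 of 37 members and 4 of 14 enzymes were above 0, with a median of −0.16 over the members and −0.05 over all genes (7304 of 17076 above 0). Without Kmt2a+/+ replicate 3 instead, 24 of 37 members were above 0, with a median of 0.07 against 0.04 for all genes.

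With nestin-Cre in both groups, Nes-Cre+/- Kmt2a+/LSL against Nes-Cre+/- Kmt2a+/+ gave 0 members with an adjusted p under 0.05 (0% of all genes) and 1 with an unadjusted p under 0.05 by edgeR, higher (0.621% of all genes were higher and 0.492% lower, 1.11% in either direction). DESeq2's Wald test called 0 members (0.0176% of all genes), and its z-scores with an empirical null called 1, Pfkfb4 (1.41%). The member with an unadjusted p under 0.05 was Pfkfb4, a sister enzyme of Pfkfb3 known as a HIF target. Pfkfb4 had 17, 0 and 0 counts (Kmt2a+/+), 23, 0 and 94 (Kmt2a+/LSL), 0, 0 and 0 (Nes-Cre+/- Kmt2a+/+), followed by 80, 0 and 73 (Nes-Cre+/- Kmt2a+/LSL). It was thus either at 0 or at 17 to 94 counts, and both states occurred within 3 of the 4 genotypes. The mean of 2.44 CPM in Nes-Cre+/- Kmt2a+/LSL was at least 19.8-fold higher than the floor of 3 counts per library in Nes-Cre+/- Kmt2a+/+, with an unadjusted p = 0.0246 and an adjusted p of 1 by edgeR. The libraries overlapped at 0, and without any 1 of the Nes-Cre+/- Kmt2a+/+ libraries the unadjusted p was 0.0517 to 0.0533 by edgeR. Of the 37 members 26 were above 0 (50.9% of all genes), with a median of 0.10, also with Pfkfb4 at its bound. The libraries of Eno1 alone did not overlap (6.68% of all genes, 3.1% higher and 3.58% lower), at 1865, 2018 and 1859 CPM against 1808, 1744 and 1623, with a log2 fold change of 0.15 (SE 0.27, unadjusted p = 0.586 by edgeR).

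Kmt2a+/LSL against the mean of the other 3 genotypes gave 0 of 37 members with an adjusted p under 0.05 and 0 with an unadjusted p under 0.05 by edgeR (1.2% of all genes, 0.521% higher and 0.679% lower). Pfkfb3 (0.41, unadjusted p = 0.0409) and Pfkfb4 (unadjusted p = 0.0208) passed the latter by edgeR without Kmt2a+/+ replicate 1, as did 2.87% of all genes. Of the 37 members 26 were above 0 (50.9% of all genes), and 24 without that library (9115 of 16987 genes). DESeq2's Wald test called 0 members (0.0234% of all genes) and its z-scores with an empirical null 2, Tpi1 and Pfkfb3 (2.46%). With all 12 libraries, TMM, genotype as the only term and no offset, this was the only comparison in which edgeR called a gene, 1 of 17076 (0.00586%). With the replicate block the count was 0, as it was when any library other than Kmt2a+/+ replicates 1 and 3 was left out. That gene was the imprinted growth regulator Grb10, which is no member and was named after its values were seen, at 63.5 to 85.5 CPM in Kmt2a+/LSL and 167 to 224 CPM elsewhere. No member was free of overlap here (0.363% of all genes, 0.164% higher and 0.199% lower). The difference between both LSL effects, with nestin-Cre minus without, was called for 0 members at an adjusted p under 0.05 (0% of all genes). At an unadjusted p under 0.05 it was found for 1 (1.73% of all genes, 1.11% higher and 0.621% lower), Ldhb. The log2 difference of Ldhb was 1.43 (SE 0.64, unadjusted p = 0.0482 by edgeR), and 0.63 without Kmt2a+/+ replicate 1 (unadjusted p = 0.157 by edgeR). Ldhb also did not pass without Kmt2a+/LSL replicate 2 or 3, without any 1 of the Nes-Cre+/- Kmt2a+/+ libraries, or without Nes-Cre+/- Kmt2a+/LSL replicate 2 or 3. Of the 37 differences 17 were above 0 (49.8% of all genes), 21 with DESeq2 size factors (9272 of 17076 genes) and 22 without Kmt2a+/+ replicate 1 (8128 of 16987 genes). Of the 14 enzymes 4 were above 0, and 10 without that library. With the GC offset 24 of 37 were above 0, and 10 of 14 enzymes in place of 4, and the median went from −0.02 to 0.17 while that of all genes went to 0.07 (9991 of 17076 above 0). Without Kmt2a+/LSL replicate 2, 11 of 37 were above 0, with a median of −0.06 against 0.02 for all genes. The test of any difference among the 4 genotypes gave Pfkfb3 (unadjusted p = 0.0264) and Ldhb (unadjusted p = 0.0293), both with an adjusted p of 1 by edgeR (1.15% of all genes had an unadjusted p under 0.05). This test gave Pfkfb3 and Pfkfb4 and not Ldhb without Kmt2a+/+ replicate 1 (908 of 16987 genes), and with the replicate block Pfkfb3 alone.

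A wider list of 62 other glycolytic, pyruvate-handling and hypoxia genes, of which 59 were tested, was also examined. None had an adjusted p under 0.05 by edgeR in any comparison. At an unadjusted p under 0.05 no gene of the list was found in Kmt2a+/LSL against Kmt2a+/+, in Nes-Cre+/- Kmt2a+/LSL against Kmt2a+/LSL, in Nes-Cre+/- Kmt2a+/+ against Kmt2a+/+, or in Kmt2a+/LSL against the mean of the others. In Kmt2a+/LSL against Kmt2a+/+ 33 of 59 were above 0, with a median of 0.02, and in Nes-Cre+/- Kmt2a+/LSL against Kmt2a+/LSL 25 of 59, with a median of −0.03. Only Pklr, the liver and red cell pyruvate kinase, had an unadjusted p under 0.05, in Nes-Cre+/- Kmt2a+/LSL against Nes-Cre+/- Kmt2a+/+ and in the difference between the LSL effects, and its highest value in any library was 0.119 CPM.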

How the data were processed

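Per the labels and the methods of the study, poly(A) RNA of 12 mNPC cultures was sequenced, and the authors quantified transcripts with kallisto 0.48.0 on mm10 (GRCm38), summed them per gene with tximport and mapped identifiers with biomaRt. The authors deposited the estimated count of each gene, not normalized and in whole numbers, and ran DESeq2 1.42.0 on it. Here these estimates entered a test planned for read counts without rounding. Symbols came from the GRCm38 annotation for 18718 of 18911 genes (99%).

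All 12 libraries were fitted together with genotype as the only term (R 4.3.3, edgeR 4.0.16, TMM, quasi-likelihood F-test, Benjamini-Hochberg), keeping the 17076 genes whose 12 counts summed to over 10 and were above 0 in 2 or more libraries. The biological coefficient of variation was 0.368. Log2 values used a prior count of 2. Single members were compared with two-sided exact permutation tests. Alternatives used DESeq2 1.42.0, limma 3.58.1 with voom, an empirical null fitted to the central 75% of z-scores in place of the fdrtool step of the study, other filters and size factors, the 9 libraries of the study, a replicate block and each library left out. A GC offset (loess span 0.5) with and without the block, and copies summed with their member, were chosen after seeing the data. Copies share at least 50% of their 31-base words with a member. Fits were tested on simulated data that varied less than these libraries and held no deviating library. That test does not show how the fits perform here. No pair of replicates agreed within sampling noise, so none was treated as 1 library deposited again; this does not show that they came from separate cultures.

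The 37 members and all gene lists were chosen with earlier results of these data known. Values in every library are given for 11 members set by role, for members with an unadjusted edgeR p under 0.05 in a comparison, and for any without overlap in both main comparisons. The 3 most and 3 least variable members, those without overlap and those singled out as examples are also named, the examples after their values were seen. Reads, isoforms and protein were not analysed here.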

Additional observations from a re-analysis of the deposited data

How the results depend on the processing

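The number of members with an adjusted p under 0.05 was 0 in all 7 tests, and stayed at 0 to 0 in those run when each library was left out in turn, with DESeq2 size factors, the DESeq2 Wald or likelihood ratio test, limma-voom with quality weights, either filter, the 9 libraries of the study (first 2 comparisons only), the GC offset with and without the block, the copies summed, and an adjusted p under 0.1. The exception was the DESeq2 z-scores with an empirical null, run for 6 of the 7, which gave 2 members in Nes-Cre+/- Kmt2a+/LSL against Kmt2a+/LSL (Tpi1 and Pfkfb3; 5.48% of all genes), 1 in Nes-Cre+/- Kmt2a+/LSL against Nes-Cre+/- Kmt2a+/+ (Pfkfb4, adjusted p = 0.0164; 1.41%) and 2 in Kmt2a+/LSL against the mean of the other 3 genotypes (Tpi1 and Pfkfb3; 2.46%); the cause was not tested. Over all genes, edgeR with 12 libraries, TMM, genotype alone and no offset called 0 except 1 in the comparison with the other 3 genotypes, and 0 there with the replicate block. Without Kmt2a+/+ replicate 1 it called 2 in the first, 1 in the second, 2 in that with the other 3 genotypes and 3 in the test of any difference, and with the GC offset 1, 1, 2 and 1 in the same order. By contrast the DESeq2 Wald test called 7, 7, 3, 3, 4 and 10 genes in the order of the report and the likelihood ratio test 5, none of them a member. The fold changes of Ldhb, Pfkfb3, Epas1 and Pfkfb4 in the comparisons where edgeR gave an unadjusted p under 0.05 kept their sign under these alternatives. Others did not: in Kmt2a+/LSL against Kmt2a+/+ Pfkfb3 went from 0.03 to −0.07 with the GC offset, and Tpi1 from −1.70 to 0.01 with 1 library left out. Leaving out single libraries moved Ldhb between −1.52 and −0.38 in Kmt2a+/LSL against Kmt2a+/+ and between −1.77 and −0.63 in Nes-Cre+/- Kmt2a+/+ against Kmt2a+/+, and Epas1 between −0.52 and −0.22.

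The replicate numbers are shared by the genotypes in the labels, which do not say what a number marks, and not every same-numbered pair correlated over 0.1, so they were not taken as pairs. Deviations of same-numbered libraries had a mean correlation of 0.0844 over 18 pairs (−0.0717 to 0.416), 5 of them over 0.1, against −0.0407 over 36 pairs with different numbers, 4 of them over 0.1, and 8 of 12 libraries correlated best with their own number, a hint from the data and not from the design. With the replicate block, 0 members were called in any comparison, as without it. At an unadjusted p under 0.05 by edgeR, the block lost Epas1 and gained Slc2a3 (0.46) in Nes-Cre+/- Kmt2a+/+ against Kmt2a+/+, and lost Ldhb in the test of any difference.

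Depth limits Car9, Ndrg1, Ankrd37 and Slc16a3, which have at most 79 counts in any library. Pfkfb4 had 0 counts in Kmt2a+/LSL replicate 2 (24836999 in total) and 94 in replicate 3 (22715382 in total). The cause of its zeros was not tested. The exact permutation test cannot go below 0.1 with 3 libraries against 3, or below 0.00455 with 3 against 9.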
